A study of Homo sapiens with 6 samples.

Results

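Rap1 is a small GTPase that switches between a GDP-bound, inactive and a GTP-bound, active form. Guanine nucleotide exchange factors (GEFs) load it with GTP and GTPase-activating proteins (GAPs) return it to the GDP-bound form. In platelets and megakaryocytes, GTP-bound Rap1 brings talin to the cytoplasmic tail of integrin β chains, and together with kindlin-3 this switches the fibrinogen receptor αIIbβ3 to its adhesive state. To examine whether propionate (C3) acted on the genes of this switch, 10 genes were taken from the 58735 genes of the count table by their symbols, and all 10 were found and passed the filter on low counts. They were the Rap1 genes RAP1A and RAP1B, the GEF genes RAPGEF1, RAPGEF2 and RASGRP2, the GAP genes RASA3, SIPA1 and RAP1GAP, the talin gene TLN1 and the kindlin-3 gene FERMT3.

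The data came from Meg-01, an established megakaryoblastic leukaemia cell line. In 3 libraries the cells had no treatment (control) and in 3 libraries they had received 500 µM sodium propionate for 48 hours (C3). This time is that of the series description, whereas the methods of the study also name a shorter incubation for RNA extraction. The study describes the libraries of a group as technical replicates of this single line, so p-values measure the spread between these libraries only. Libraries held 16159449 to 22821722 counts, and normalized counts are counts divided by the TMM-scaled library size and multiplied by the mean of that size.

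Of 12 megakaryocyte markers, GP1BB and PF4 were at 0 counts in every library and the other 10 passed the filter, with summed levels of 1555 to 1647 CPM (counts relative to the library total) in control and 1642 to 1729 CPM in C3 libraries. Of these 10, GFI1B was higher (log2 fold change 0.35, edgeR adjusted p = 3.3e-04) and GP1BA (-0.49, adjusted p = 2.2e-06) and NFE2 (-0.38, adjusted p = 1.9e-04) were lower after C3 treatment, and each kept its call in all 13 alternative fits. Summed levels of 10 erythroid markers (68.3 to 76.3 CPM in control, 85.0 to 89.0 CPM in C3 libraries) and of 7 myeloid markers (236 to 240.1 CPM and 226 to 227 CPM) did not overlap between the groups. Those of 7 lymphoid markers, 13.8 to 14.5 CPM in control and 15.4 to 19.9 CPM in C3 libraries, did not overlap either. These CPM are without TMM scaling. Summed as normalized counts, the lymphoid markers did overlap, with C3 replicate 2 below control replicate 3. FCGR3B of the myeloid and MS4A1 of the lymphoid markers were at 0 in every library. Of the erythroid markers, EPOR (log2 fold change 0.35, edgeR adjusted p = 0.0046) and ALAS2 (0.56, adjusted p = 0.037) were higher and HBA2 (-0.68, adjusted p = 0.024) lower, so the list went both ways. EPOR kept its call in all 13 alternative fits. ALAS2 and HBA2 each lost theirs in 5, with DESeq2 and, for ALAS2, without control replicate 1, control replicate 3, C3 replicate 2 or C3 replicate 3 (adjusted p = 0.051 to 0.20), for HBA2 without control replicate 1, control replicate 2, C3 replicate 2 or C3 replicate 3 (adjusted p = 0.051 to 0.12). The myeloid marker LYZ was lower (-0.51, edgeR adjusted p = 4.7e-05) and kept its call in all 13 fits, while of 4 tested lymphoid markers NKG7 came nearest to a call (adjusted p = 0.054). These markers are named for their calls, after their values had been seen. The part of these marker changes in the results below was not tested. In bulk RNA, a change in the share of a cell state and a change in RNA per cell cannot be told apart.

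RAP1A and RAP1B encode nearly identical proteins from different chromosomes, so their coding sequences are shown first, to let the assignment of reads to either gene be judged. In GRCh38, RAP1A (ENSG00000116473) spans 111542218 to 111716691 of chromosome 1 and RAP1B (ENSG00000127314) spans 68610855 to 68671901 of chromosome 12, both read forward. The first 150 coding bases of their MANE Select transcripts (the transcript on which RefSeq and GENCODE settled for each gene) follow, read from GENCODE release 44 and written 5′ to 3′. Capitals mark the bases that differ between the genes.
RAP1A: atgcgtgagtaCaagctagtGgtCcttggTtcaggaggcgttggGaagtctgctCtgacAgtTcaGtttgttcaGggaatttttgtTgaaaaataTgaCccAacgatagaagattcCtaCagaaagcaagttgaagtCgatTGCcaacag
RAP1B: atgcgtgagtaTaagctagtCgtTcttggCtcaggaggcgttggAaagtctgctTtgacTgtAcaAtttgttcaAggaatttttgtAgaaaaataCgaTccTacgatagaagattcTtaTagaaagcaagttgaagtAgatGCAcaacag
Of these 150 bases, 20 differed. Over the whole coding sequence of 552 bases (without the stop codon), 458 were identical (83.0%) and 94 differed, and the longest stretch shared by both was 26 bases. The RAP1B-like gene RAP1BL was closer to RAP1B, with 549 of 552 coding bases identical, and was given 15 to 21 counts per library. The related pseudogenes RAP1BP1, RAP1BP2, RAP1BP3 and RAP1AP had 0 counts in all 6 libraries. RAP1B values are therefore uncertain by reads that also match RAP1BL.

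The clearest change among the 10 genes was a rise of RAP1GAP, the gene of a GAP that turns Rap1 off, and RAP1A rose by a smaller amount. The other 8 genes did not pass the test. Calls were made by edgeR's quasi-likelihood test at a Benjamini-Hochberg adjusted p-value of 0.05 over all 15078 tested genes. By this rule 2 of the 10 genes were higher and 0 were lower after C3 treatment, where 11.0% of all tested genes were called higher and 8.77% called lower. Without adjustment of the p-values the same threshold also gave 2 and 0, against 16.8% and 15.3% of all tested genes. The gates of the study (an adjusted p under 0.01 with more than 1.3-fold change) passed RAP1GAP alone, 1 gene higher and 0 lower, against 5.05% and 1.47% of all tested genes. The C3 libraries lay above all control libraries for 3 of the 10 genes (17.5% of all tested genes) and below them for 1 gene (16.9%). The median log2 fold change was 0.052 over the 10 genes and 0.0021 over all tested genes. The counts alone do not set these 10 genes apart from the rest.

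**Figure D1:**
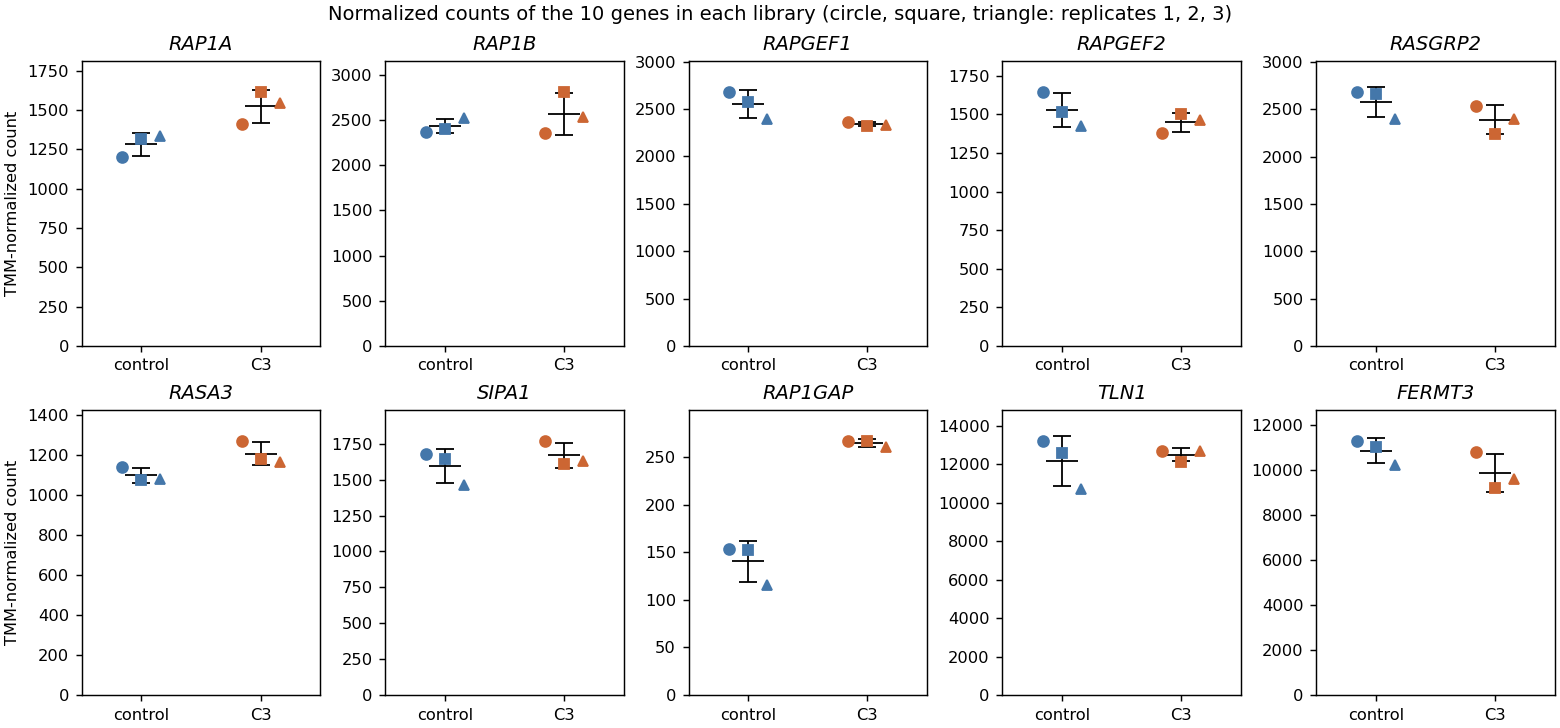
TMM-normalized counts (vertical axes, each starting at 0) of the 10 genes in the control (blue) and C3 (orange) libraries, with the mean and SD of 3 libraries in black and circles, squares and triangles for replicates 1, 2 and 3. RAP1GAP shows a wide gap between the groups, with 116 to 154 in control and 260.4 to 268 in C3 libraries, and RAP1A, RASA3 and RAPGEF1 show narrow gaps, whereas the groups overlap for the other 6 genes.

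Rap1 itself was examined first. RAP1A had normalized counts of 1199, 1313 and 1336 in control replicates 1 to 3 and of 1408, 1616 and 1546 in C3 replicates 1 to 3. All C3 libraries were above all control libraries, although C3 replicate 1 was only slightly above control replicate 3. The mean rose from 1283 ± 73.3 to 1523 ± 106 (SD, n = 3 each), a log2 fold change of 0.25 (SE 0.069, edgeR adjusted p = 0.011). This is a rise of 19.0%, with a 95% interval of 7.84% to 31.2%, below the fold change gate of the study. The call was lost when control replicate 1 (log2 fold change 0.22, adjusted p = 0.066), C3 replicate 2 (0.21, adjusted p = 0.064) or C3 replicate 3 (0.24, adjusted p = 0.054) was left out of edgeR's test.

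RAP1B, the more abundant Rap1 protein of platelets, had 2369.7, 2406 and 2518 normalized counts in control replicates 1 to 3 and 2357, 2815 and 2535 in C3 replicates 1 to 3. The lowest of all 6 libraries was a C3 library and the groups overlapped. The means were 2431 ± 77.4 and 2569 ± 231 (SD, n = 3 each), with a log2 fold change of 0.081 (SE 0.067, edgeR adjusted p = 0.44). The 95% interval ran from -3.91% to 16.4%, and the log2 fold change was 0.013 without C3 replicate 2 and 0.14 without C3 replicate 1. Within libraries, the share of RAP1A in the counts of both genes was 33.6%, 35.3% and 34.7% in control replicates 1 to 3 and 37.4%, 36.5% and 37.9% in C3 replicates 1 to 3. The shares did not overlap between the groups. The log2 ratio of RAP1A to RAP1B was -0.92 ± 0.055 in control and -0.75 ± 0.044 in C3 libraries (SD, n = 3 each), a difference of 0.17 that was not tested. A ratio of counts holds transcript length as well as level, so it compares libraries and not the 2 genes.

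The 3 GEF genes had lower means after C3 treatment, and none passed the test. RAPGEF1 (ENSG00000107263, chromosome 9, reverse strand, 131576770 to 131740076) encodes an exchange factor that is bound by adaptors of the CRK family. It had 2685, 2574 and 2392 normalized counts in control replicates 1 to 3 and 2364, 2323 and 2331 in C3 replicates 1 to 3. The C3 libraries were close together and all below the control libraries, of which replicate 3 was nearest to them. The means were 2550.1 ± 148 and 2339 ± 21.7 (SD, n = 3 each), and the log2 fold change of -0.13 (SE 0.063) came with an edgeR adjusted p-value of 0.17. Its 95% interval ran from -16.2% to 0.25%, and the log2 fold change was -0.074 without control replicate 1.

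RASGRP2 (ENSG00000068831, chromosome 11, reverse strand, 64726911 to 64745456) encodes CalDAG-GEFI, the calcium-sensitive GEF that starts the rapid activation of Rap1 in platelets. It had 2689, 2659.5 and 2399 normalized counts in control replicates 1 to 3 and 2542, 2242 and 2396 in C3 replicates 1 to 3. C3 replicate 1 lay within the range of the control libraries. The log2 fold change was -0.11 (SE 0.066, edgeR adjusted p = 0.26), with a 95% interval from -15.7% to 1.74%, and it was -0.064 without C3 replicate 2 and -0.069 without control replicate 1. RAPGEF2 (ENSG00000109756, chromosome 4, forward strand, 159103013 to 159360174), the gene of a GEF that does not depend on calcium, had 1648, 1514 and 1423 normalized counts in control and 1382, 1504 and 1461 in C3 replicates 1 to 3. Its groups overlapped, and the log2 fold change was -0.078 (SE 0.068, edgeR adjusted p = 0.47), with values from -0.13 to -0.0066 when 1 library was left out.

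Among the GAP genes, RAP1GAP changed while RASA3 and SIPA1 did not pass the test. RAP1GAP (ENSG00000076864, chromosome 1, reverse strand, 21596221 to 21669357) had 154, 153 and 116 normalized counts in control replicates 1 to 3 and 268, 267 and 260.4 in C3 replicates 1 to 3. The C3 libraries were almost equal, and each was far above the highest control library. The mean rose from 141 ± 21.6 to 265 ± 3.98 (SD, n = 3 each), a 1.87-fold rise with a 95% interval of 1.57-fold to 2.23-fold. The log2 fold change was 0.90 (SE 0.12, edgeR adjusted p = 7.8e-06), and the gene ranked 150 by p-value among the 15078 tested. The two-sided exact permutation test of the normalized counts gave p = 0.1, below which groups of 3 and 3 libraries cannot go. Dropping 1 library at a time left values from 0.79 (without control replicate 3) to 0.99 (without control replicate 1) on the log2 scale, each past the test. The raw counts behind these values were 97 to 157 in control and 235 to 332 in C3 libraries, the lowest of the 10 genes, and no exon base of RAP1GAP is shared with another annotated gene.

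RASA3 (ENSG00000185989, chromosome 13, reverse strand, 113977783 to 114132623) encodes the GAP that keeps Rap1 off in resting platelets. It had 1142, 1076 and 1082 normalized counts in control replicates 1 to 3 and 1274, 1183 and 1169 in C3 replicates 1 to 3. All C3 libraries were above all control libraries, but by less than the spread within the C3 group. The log2 fold change was 0.13 (SE 0.067, edgeR adjusted p = 0.17), with a 95% interval from -0.26% to 20.7%. When libraries were scaled by their size alone it was 0.21 and passed edgeR's test (adjusted p = 0.032), a scaling under which the median over all genes was 0.076. SIPA1 (ENSG00000213445, chromosome 11, forward strand, 65638101 to 65650918), the gene of the Rap GAP SPA-1 of blood cells, had 1680.1, 1644 and 1462 normalized counts in control and 1772, 1613 and 1627 in C3 replicates 1 to 3. Its groups overlapped, and the log2 fold change was 0.064 (SE 0.068, edgeR adjusted p = 0.56), with values from 0.0066 to 0.12 when 1 library was left out. RAP1GAP made up 4.36% to 5.32% of the counts of the 3 GAP genes in control libraries and 8.07% to 8.72% in C3 libraries, a share of counts that is not corrected for transcript length.

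Neither of the integrin activator genes passed the test. TLN1 (ENSG00000137076, chromosome 9, reverse strand, 35696948 to 35732195) encodes talin-1, which binds the integrin β tail and links it to actin. It had 13239, 12588 and 10719 normalized counts in control replicates 1 to 3 and 12719, 12154 and 12683 in C3 replicates 1 to 3. The 3 C3 libraries lay within the range of the control libraries, which was set by the low value of control replicate 3. The log2 fold change was 0.039 (SE 0.071, edgeR adjusted p = 0.76) and turned to -0.044 without control replicate 3 (adjusted p = 0.69). Its 95% interval ran from -7.13% to 13.7%.

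FERMT3 (ENSG00000149781, chromosome 11, forward strand, 64205926 to 64223896) encodes kindlin-3, the kindlin of blood cells and a partner of talin at the β tail. It had 11307, 11019 and 10245 normalized counts in control replicates 1 to 3 and 10810.2, 9200.1 and 9581 in C3 replicates 1 to 3. C3 replicates 2 and 3 were below all control libraries and C3 replicate 1 was among them. The log2 fold change was -0.14 (SE 0.068, edgeR adjusted p = 0.16), with a 95% interval from -17.6% to 0.11%. Without C3 replicate 1 it was -0.21 and passed the test (adjusted p = 0.0071). It was -0.089 without C3 replicate 2 (adjusted p = 0.50) and -0.097 without control replicate 1 (adjusted p = 0.44). Of its exon bases, 0.842% overlap TRPT1 on the other strand, and 0.0806% of those of TLN1 are shared with MIR6852 on the same strand. The log2 ratio of FERMT3 to TLN1 was -0.16 ± 0.085 in control and -0.35 ± 0.097 in C3 libraries (SD, n = 3 each), without overlap between the groups.

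**Figure D2:**
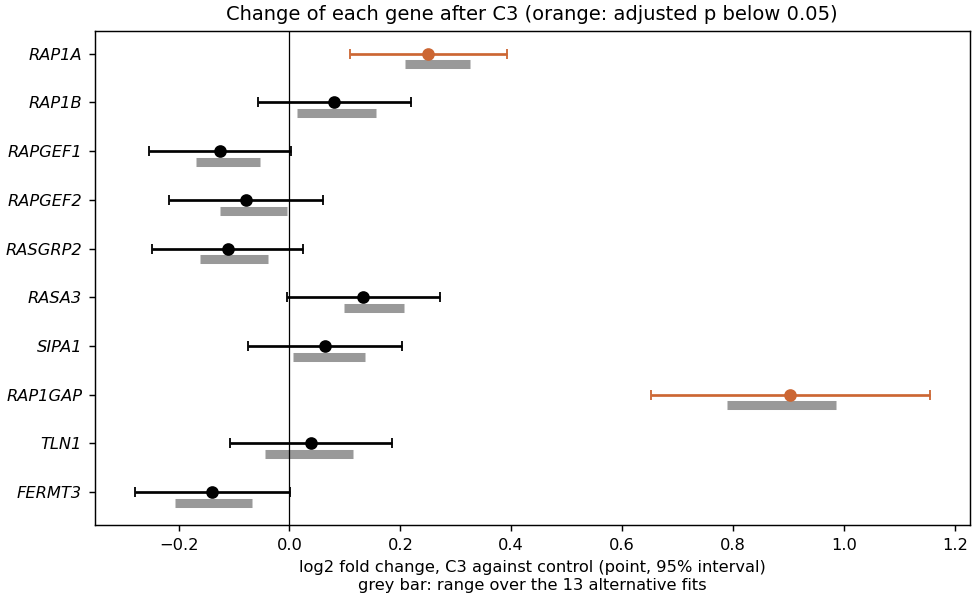
Log2 fold change of C3 against control (horizontal axis) for each of the 10 genes, with its 95% interval, in orange where the adjusted p-value was below 0.05, and as a grey bar the range over 13 alternative fits. RAP1GAP at 0.90 stands clear of the other genes, whose values lie between -0.14 and 0.25, and among the grey bars only that of TLN1 crosses 0.

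For the 8 genes without a call, the precision of the data bounded the differences between these libraries that could have been missed. Each of these genes had at least 906 counts in every library and a standard error of 0.063 to 0.071 on the log2 scale. Their 95% intervals all lay between -17.6% (FERMT3) and 20.7% (RASA3), inside the gate of the study for rises. These intervals hold for TMM scaling with all libraries and were not computed for the alternative fits. Scaling by library size alone moved all of them upward, to -0.052 for RAPGEF1, -0.0035 for RAPGEF2, -0.039 for RASGRP2, -0.068 for FERMT3, 0.11 for TLN1, 0.14 for SIPA1 and 0.16 for RAP1B on the log2 scale, of which none passed the test, and to the value given above for RASA3. Over the 10 genes, control replicate 3 was the lowest control library for 7 genes and C3 replicate 1 the highest C3 library for 7 genes.

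The means of all 3 GEF genes were lower and those of all 3 GAP genes higher after C3 treatment, and of these 6 genes RAP1GAP alone passed the test. The 8 other GEF genes of the pathway list below went the other way, all with positive log2 fold changes (median 0.31). Of 12 tested other GAP genes, 11 had positive values. Lower values thus held for the 3 chosen GEF genes and not for GEF genes at large. With 1 library left out, the log2 fold changes of RAPGEF2 came as near to 0 as -0.0066 (without control replicate 1) and those of SIPA1 as near as 0.0066 (without control replicate 3), so nothing rests on their signs. Comparing genes within a library removes the scaling between libraries. The log2 ratio of RASGRP2 to RASA3 was 1.23 ± 0.078 in control and 0.98 ± 0.057 in C3 libraries (SD, n = 3 each). That of RASGRP2 to SIPA1 went from 0.70 ± 0.018 to 0.52 ± 0.041, and that of RASGRP2 to RAP1GAP from 4.21 ± 0.14 to 3.17 ± 0.092. For RAPGEF1 the differences against RASA3, SIPA1 and RAP1GAP were -0.26, -0.19 and -1.05. For RAPGEF2 they were -0.21 and -0.14 against RASA3 and SIPA1 (-0.14 and -0.067 without C3 replicate 1), and its mean log2 ratio to RAP1GAP went from 3.45 to 2.45. Of these ratios, that of RAPGEF2 to SIPA1 was the one that overlapped between the groups. How often ratios of other gene pairs overlap was not computed. These 9 ratios share genes and are no independent measurements, and no test was made on them. Their falls follow from the log2 fold changes of the single genes given above and add no evidence to them.

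**Figure D3:**
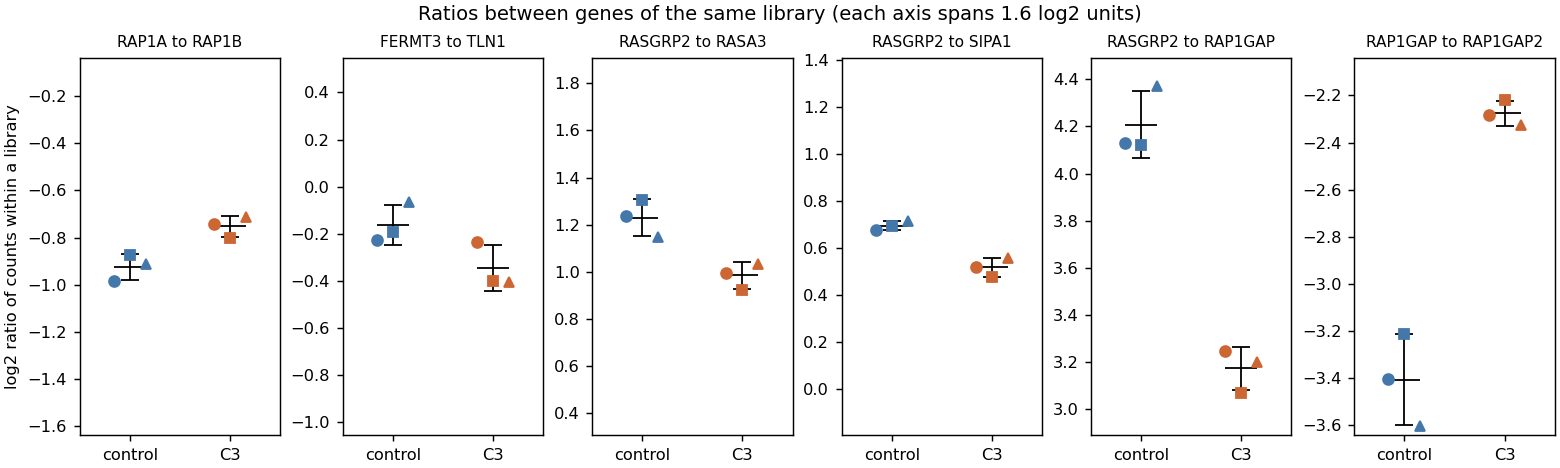
Log2 ratio of the counts of 2 genes within each library (vertical axes, each spanning the same number of log2 units and not starting at 0), for control (blue) and C3 (orange), with the mean and SD of 3 libraries in black and circles, squares and triangles for replicates 1, 2 and 3. In each of the 6 ratios shown the groups are apart, from a difference of 0.17 for RAP1A to RAP1B up to 1.13 for RAP1GAP to RAP1GAP2. The ratios of RAPGEF2 to SIPA1 and of TLN1 to ITGA2B, whose groups overlapped, are not shown.

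Levels were compared between genes as CPM per kb of the MANE Select transcript, without TMM scaling. In control libraries the order was FERMT3 (227 ± 13.6), TLN1 (73.9 ± 8.59), RASGRP2 (59.6 ± 4.18), SIPA1 (23.9 ± 1.96), RAPGEF1 (19.7 ± 1.33), RASA3 (13.7 ± 0.578), RAP1A (13.4 ± 0.643), RAPGEF2 (9.87 ± 0.826), RAP1B (9.50 ± 0.219) and RAP1GAP (2.22 ± 0.357, SD, n = 3 each). The libraries of RASA3 and RAP1A overlapped, and so did those of RAPGEF2 and RAP1B, while all other neighbours in the order were apart. After C3 treatment RAP1A (16.7 ± 1.61) and RASA3 (15.8 ± 0.292) changed places, as did RAP1B (10.6 ± 1.21) and RAPGEF2 (9.85 ± 0.690), and both still overlapped. RAP1GAP stayed lowest at 4.39 ± 0.110 CPM per kb. The place of RAP1B depends on its transcript. With the MANE Select transcript of 13378 bases it was next to last in control libraries, whereas a shorter annotated transcript of 2049 bases would put it at 62.1 ± 1.43 CPM per kb, near RASGRP2. The order of other neighbours also depends on the length used. With all exons of a gene merged, 4 pairs changed places in the control means: TLN1 (64.2 ± 7.46) was above FERMT3 (48.8 ± 2.91), RAPGEF1 (18.4 ± 1.24) above SIPA1 (17.9 ± 1.47), RAP1A (12.1 ± 0.583) above RASA3 (12.1 ± 0.509) and RAP1B (7.51 ± 0.173) above RAPGEF2 (6.03 ± 0.504). The libraries of RAPGEF1 and SIPA1 then overlapped, as did those of RAP1A and RASA3. RASGRP2 was at 22.2 ± 1.56 CPM per kb by this length, and RAP1GAP was lowest by both lengths.

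**Figure D4:**
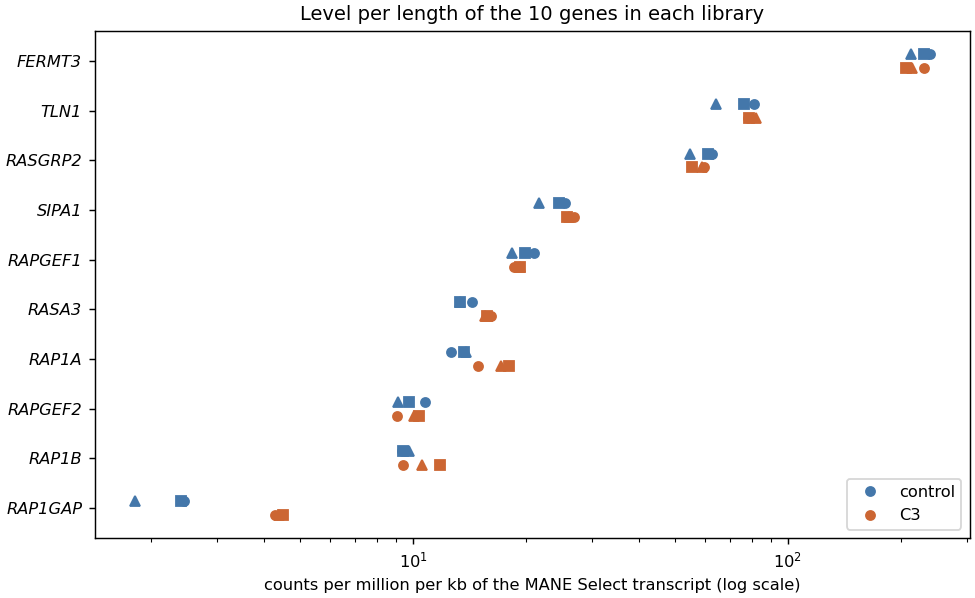
Level of the 10 genes in CPM per kb of the MANE Select transcript (horizontal log axis) in each control (blue) and C3 (orange) library, with circles, squares and triangles for replicates 1, 2 and 3. The genes span the range from 2.22 (RAP1GAP) to 227 (FERMT3) in control means, and RAP1GAP is the gene whose C3 libraries are most clearly shifted.

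The rest of the pathway was read from a list of 89 genes, of which 86 were tested. Of these, 26 were higher and 6 lower after C3 treatment by edgeR's test at an adjusted p-value of 0.05, where 11.0% of all tested genes were called higher and 8.77% lower. By the gates of the study 9 were higher and 0 lower, against 5.05% and 1.47% of all tested genes. The median log2 fold change was 0.15, against 0.0021 for all tested genes. RASGRP1, RASGRP3, RASGRP4, RAP1GAP2, APBB1IP, FLNA, VCL, KANK1, CRKL, ITGA2 and ITGAV are named below after their values had been seen. The number of lower genes was between 1 (without C3 replicate 3) and 7 (without C3 replicate 1) over the fits that left out 1 library, and it was 2 without control replicate 1, control replicate 2 or C3 replicate 2.

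Of 8 other GEF genes on the list, 4 were higher and 0 lower, and all 8 had positive log2 fold changes. Whether each of them acts on Rap1 in these cells was not tested. DOCK4, an exchange factor of the DOCK family for Rap1 and Rac, went from 202 ± 14.6 to 284 ± 8.15 normalized counts (SD, n = 3; log2 fold change 0.49, edgeR adjusted p = 0.0017). RASGRP1, RASGRP3 and RASGRP4, the paralogs of RASGRP2, had log2 fold changes of 0.74, 0.33 and 0.41 and passed edgeR's test with adjusted p-values of 0.032, 0.0094 and 0.015. The libraries of RASGRP1, with means of 38.4 ± 14.3 in control and 62.7 ± 9.98 normalized counts in C3, overlapped between the groups. RASGRP1 lost its call with DESeq2 and without control replicate 1, control replicate 2, C3 replicate 2 or C3 replicate 3 (adjusted p = 0.083 to 0.18). RASGRP4 lost it with DESeq2 (adjusted p = 0.050) and, in edgeR's test, without control replicate 3 (0.065) or C3 replicate 2 (0.12), and RASGRP3 without control replicate 1 (0.069).

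Of 12 tested other GAP genes, 3 were higher and 1 lower. RAP1GAP2, the RAP1GAP paralog known from platelets, had 1628, 1418 and 1407 normalized counts in control and 1301, 1244 and 1306 in C3 replicates 1 to 3. All C3 libraries were below all control libraries, opposite to RAP1GAP. Its log2 fold change was -0.21 (SE 0.069, edgeR adjusted p = 0.030), and the call was lost in 5 of 13 alternative fits. It was lost with library size alone (-0.14, adjusted p = 0.19) and without control replicate 1 (-0.13, adjusted p = 0.27), control replicate 2 (-0.24, adjusted p = 0.051), C3 replicate 2 (-0.19, adjusted p = 0.11) or C3 replicate 3 (-0.22, adjusted p = 0.085) in edgeR's test. The log2 ratio of RAP1GAP to RAP1GAP2 was -3.41 ± 0.19 in control and -2.28 ± 0.053 in C3 libraries (SD, n = 3 each). Their coding sequences were 68.5% identical over 1932 aligned bases. The 3 higher genes were SIPA1L2 (log2 fold change 1.11, edgeR adjusted p = 0.0032, means of 27.2 ± 7.79 and 58.7 ± 13.7 normalized counts), a paralog of SIPA1, and PLXNC1 (0.71, adjusted p = 9.7e-04) and PLXND1 (0.75, adjusted p = 9.7e-08), semaphorin receptors of the plexin family with a GAP domain.

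Of 15 tested Rap1 effector and adaptor genes, 5 were higher and 1 lower. The lower gene was APBB1IP, whose protein RIAM links Rap1 to talin. It had 3169, 3160.1 and 3189 normalized counts in control and 2870.4, 2795 and 2800.4 in C3 replicates 1 to 3, with all C3 libraries below all control libraries and a log2 fold change of -0.17 (SE 0.060, edgeR adjusted p = 0.045). This call was near the threshold and was lost in 8 of 13 alternative fits, among them library size alone (-0.096, adjusted p = 0.25), both other count filters and every removal of 1 library except that of C3 replicate 1, with adjusted p-values of 0.052 to 0.25. The higher genes that passed the gates of the study were ARAP3 (log2 fold change 0.90, edgeR adjusted p = 6.3e-08), whose protein binds Rap1, FYB1 (0.44, adjusted p = 0.0031), the adaptor ADAP, and AFDN (0.40, adjusted p = 9.0e-05), the junction protein afadin. ARAP3 had 313 to 397 normalized counts in control and 644 to 705 in C3 libraries.

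Of 21 tested partners of talin and kindlin, 4 were higher and 2 lower. SRC, a kinase at the tail of integrin β3, had a log2 fold change of 0.38 (edgeR adjusted p = 0.0020), and FLNA, the gene of filamin A, which competes with talin for β tails, one of 0.37 (adjusted p = 0.0012). VCL, the gene of vinculin, which binds talin, had 0.20 (adjusted p = 0.018) and lost its call without control replicate 2 (adjusted p = 0.075) or C3 replicate 3 (adjusted p = 0.11). PARVB, whose product β-parvin belongs to the complex that binds kindlin, fell by 0.34 on the log2 scale (adjusted p = 4.9e-04) and kept its call in all 13 alternative fits. KANK1, the gene of a talin-binding protein, had -0.26 (adjusted p = 0.033) and lost its call in 5 of them: with library size alone (-0.19), with DESeq2 (-0.27) and without control replicate 1 (-0.17), C3 replicate 2 (-0.20) or C3 replicate 3 (-0.25). Of the other talin and kindlin genes, 0 of 3 passed the test. FERMT2 had the smallest p-value, with a log2 fold change of 0.29 (edgeR adjusted p = 0.12). The 3 Rap2 genes did not pass either, and RAP2C, the one with the smallest p-value, had -0.15 (adjusted p = 0.26). Without C3 replicate 1 the value of RAP2C was -0.069.

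Of 17 genes upstream of RAPGEF1 and RASGRP2, 6 were higher and 2 lower. PRKCB, a protein kinase C gene, had the smallest p-value (log2 fold change 0.30, edgeR adjusted p = 8.9e-04). CRKL, the gene of an adaptor that binds the RAPGEF1 protein, had a log2 fold change of -0.22 (adjusted p = 0.014), from 3338 ± 147 to 2871 ± 95.4 normalized counts (SD, n = 3). The call was lost with library size alone (-0.14, adjusted p = 0.094) and, in edgeR's test, without control replicate 2 (-0.18, adjusted p = 0.13) or C3 replicate 3 (-0.19, adjusted p = 0.12). Of 7 platelet integrin subunits, 4 were higher and 0 lower, among them ITGA6 of the laminin receptor (0.43, edgeR adjusted p = 0.0011). ITGA2 (0.655, adjusted p = 0.049) and ITGAV (0.21, adjusted p = 0.041) were near the threshold. ITGA2 had 23 to 40 raw counts in control and 53 to 61 in C3 libraries, and the groups of ITGAV overlapped. Their calls were not followed individually in the alternative fits. The genes of αIIbβ3 were ITGA2B and ITGB3. ITGA2B had 12484 to 13256 normalized counts in control and 11611 to 13336 in C3 libraries (log2 fold change -0.060, edgeR adjusted p = 0.57). This value was -0.014 without C3 replicate 2 and -0.11 without C3 replicate 1, and passed the test in neither fit. ITGB3 had 176 to 190 in control and 219 to 248 in C3 libraries, and its log2 fold change of 0.34 (adjusted p = 0.033) lost the call with DESeq2 (adjusted p = 0.12). In edgeR's test it also lost the call when any 1 library other than C3 replicate 1 was left out (adjusted p = 0.067 to 0.17). Within libraries, the log2 ratio of TLN1 to ITGA2B differed by 0.11 (C3 minus control) and overlapped between the groups. That of FERMT3 to ITGA2B differed by -0.079 without overlap. These ratios were not tested.

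**Figure D5:**
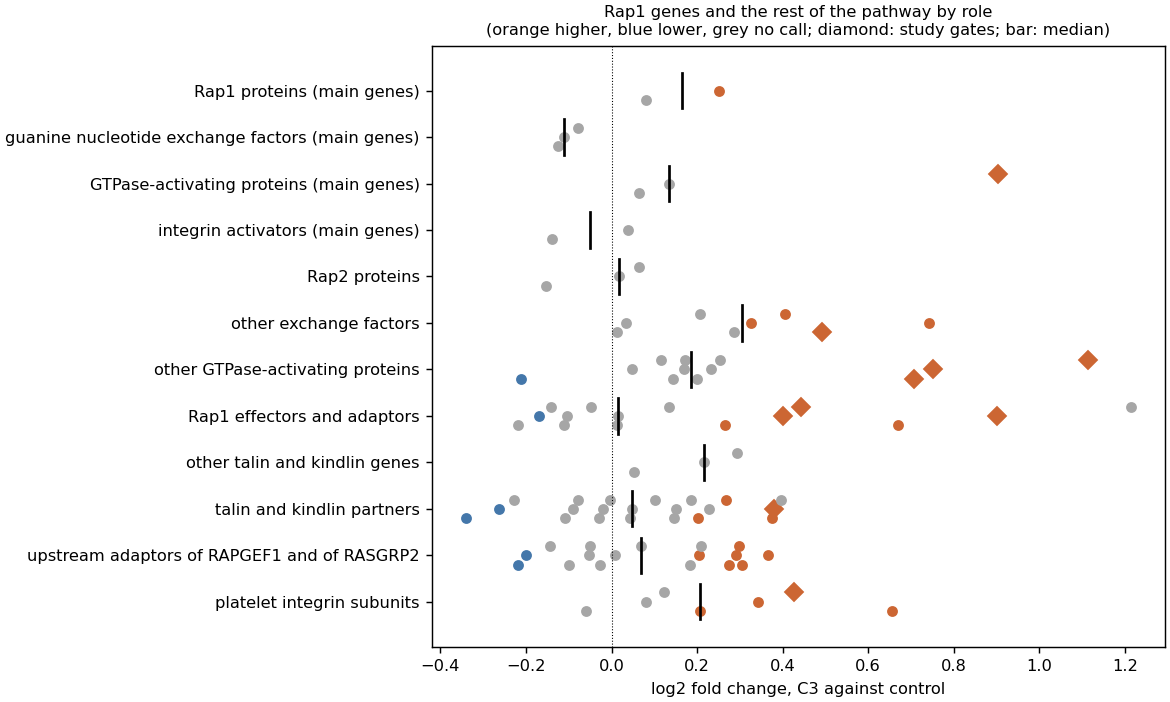
Log2 fold change of C3 against control (horizontal axis) for the 10 genes (upper 4 rows) and the 86 tested other genes of the pathway by role, with medians as black bars. Orange points passed the test as higher, blue points as lower, grey points did not pass, and diamonds passed the gates of the study. The 3 GEF genes of the upper rows lie left of 0, from -0.13 to -0.078, while RAP1GAP is among the points farthest to the right. The 8 other GEF genes all lie right of 0.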

How the data were processed

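RNA of Meg-01 cells was sequenced, and the authors deposited 1 table of raw counts per gene for 3 control and 3 C3 libraries. The submitters' processing notes name fastp, STAR 2.6.1d, featureCounts 1.5.0-p3, DESeq2 and the build GRCh38. Which annotation release was counted, and whether with strand, is not given in the sources used here. How reads of overlapping genes were handled is thus not known here. Genes reaching 10 counts in 3 or more libraries (15078 of 58735) were scaled by TMM and tested with edgeR 4.0.16 (R 4.3.3, quasi-likelihood test, all 6 libraries, group as the single term), with p-values adjusted by Benjamini-Hochberg over all tested genes. The script was tested on simulated data. The genes and lists were chosen with earlier results of these data known. Named were the 10 genes, ITGA2B, ITGB3, pathway genes past the gates of the study and the gene with the smallest p-value per role. Coordinates, exons and sequences came from GENCODE release 44. Within-group library pairs differed by more than counting noise, so no library was a copy of another. Alternatives were other scalings and count filters, DESeq2 1.42.0, limma-voom 3.58.1, a replicate block and the removal of each library.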

Additional observations from a re-analysis of the deposited data

How the results depend on the processing

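RAP1GAP was called higher in all 13 alternative fits, with log2 fold changes of 0.79 to 0.99 and adjusted p-values of 1.8e-11 to 1.5e-04. RAP1A kept its direction in all 13 (0.21 to 0.33) and lost its call in 3. Of the 10 genes, 1 was called higher under the gates of the study, and 1 to 2 were called higher and 0 to 1 lower when 1 library was left out; the 1 lower gene was FERMT3, without C3 replicate 1. TLN1 ranged from -0.044 (without control replicate 3) to 0.12 (without control replicate 1) with 1 library left out. The other pathway genes called higher fell from 26 to 9 under the gates of the study, and those called lower from 6 to 0 under these gates, to 1 with library size alone and to between 1 and 7 with 1 library left out. ITGA2B turned to 0.011 with library size alone, under which the median over all genes was 0.076. The cause of these changes was not tested. Replicate numbers did not pair the libraries (correlations of 0.021, -0.047 and 0.030 between same-numbered libraries), and with the replicate block RAP1A had 0.25 and RAP1GAP 0.92, with no call among the 10 genes changed. Over all tested genes, 1658 were higher and 1323 lower in the test as reported, 2303 and 611 with library size alone, 1121 and 1161 with DESeq2, 1852 and 1550 with the replicate block, 761 and 222 under the gates of the study, and 1053 to 1860 and 591 to 1891 with 1 library left out. Of the 10 genes, RAP1GAP had the lowest counts, 97 in its lowest library.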
